A study of Mus musculus with 6 samples.

Results

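The genes described here are complement components and regulators taken by symbol: C1ra, C1s1, C3, C4b, Cfb, Serping1, Cd55 and Cd59a. Of these 8, 7 had a row among the 16854 genes, and Serping1, the C1 inhibitor, was not analysed here. RNA came from C2C12 cells, a mouse myoblast line that fuses into myotubes when serum is lowered. All cells were held for 3 days in 2% horse serum after confluence. In 3 libraries the cells stably expressed a short hairpin RNA against Adamtsl2, a secreted matrix glycoprotein (the knockdown), and in 3 libraries they carried a scrambled hairpin (the control). The labels do not say whether libraries came from separate cultures, whether cells were clonal or how many hairpins were used, so p-values measure the spread between these libraries alone, and the loss of Adamtsl2 cannot be told apart from off-target or other differences between the stable lines.

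The complement system is a cascade of secreted proteins that tags and damages cells. In the classical pathway the protease C1r activates the protease C1s, which cleaves C4 and C2, and all pathways meet at C3, whose fragment binds surfaces and, joined to factor B, forms an enzyme that cleaves more C3. Cells protect themselves with inhibitors such as CD55, which speeds the decay of these enzymes, and CD59, which blocks the final membrane pore. Most plasma complement comes from the liver, but fibroblasts and other mesenchymal cells also make C1r, C1s and C3. In mouse muscle, activated C1s has been reported to cleave the Wnt co-receptor Lrp6.

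Recovered reads totalled 37346439 to 50329438 per library. Adamtsl2 had normalised counts of 23.2, 21.7 and 7.83 in knockdown libraries 1 to 3, against 1325, 1266 and 1307 in control libraries. The third knockdown library stood apart: its correlation with the other knockdown libraries across genes was 0.917 and 0.920 (Pearson, log2 values), against 0.996 between those and 0.993 to 0.995 among controls. Values without it are given for the 7 genes, and for other complement, inducer and marker genes named below where their call changed or their change moved by over 1.5 times. All 8 of 8 skeletal muscle markers (among them Myog, Myh3 and Ckm) were lower in the knockdown (limma), where their summed normalised count was 4903 to 6054, against 1045421 to 1090138 in control.

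For each of the 7 genes, all knockdown libraries had higher values than any control library. The largest differences were those of C3, at 66.3 times the control mean, and of Cd55, at 41.6 times. C1s1 and Cfb were at 7.79 and 8.44 times the control mean, C1ra at 4.71, and the scarce C4b at 3.38. With limma, 6 of 7 rose past the threshold, all but Cd59a, and 0 fell. At an unadjusted p under 0.05 Cd59a was higher too and 0 were lower, where 25.5% of all genes tested were higher and 27.3% lower. Of the 16245 genes tested, 21.7% were called higher and 23.5% lower. All 3 knockdown values lay above all 3 controls in 30% of them, and below in 32.7%. With edgeR all 7 were higher, against 23.2% of genes called higher and 22% lower. The median log2 change of the 7 was 2.92, against -0.001 over all genes tested. The main test was limma on log2(normalised count + 1), with Benjamini-Hochberg adjustment over all genes tested and a threshold of 0.05. C4b reached the minimum of 10 in at least 3 libraries through its knockdown values alone, so it could hardly have been tested without differing. For each gene an exact two-sided permutation test reached p = 0.1, and no smaller p can be had from groups of 3. In bulk RNA, more cells of a type and more RNA per cell cannot be told apart.

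**Figure D1:**
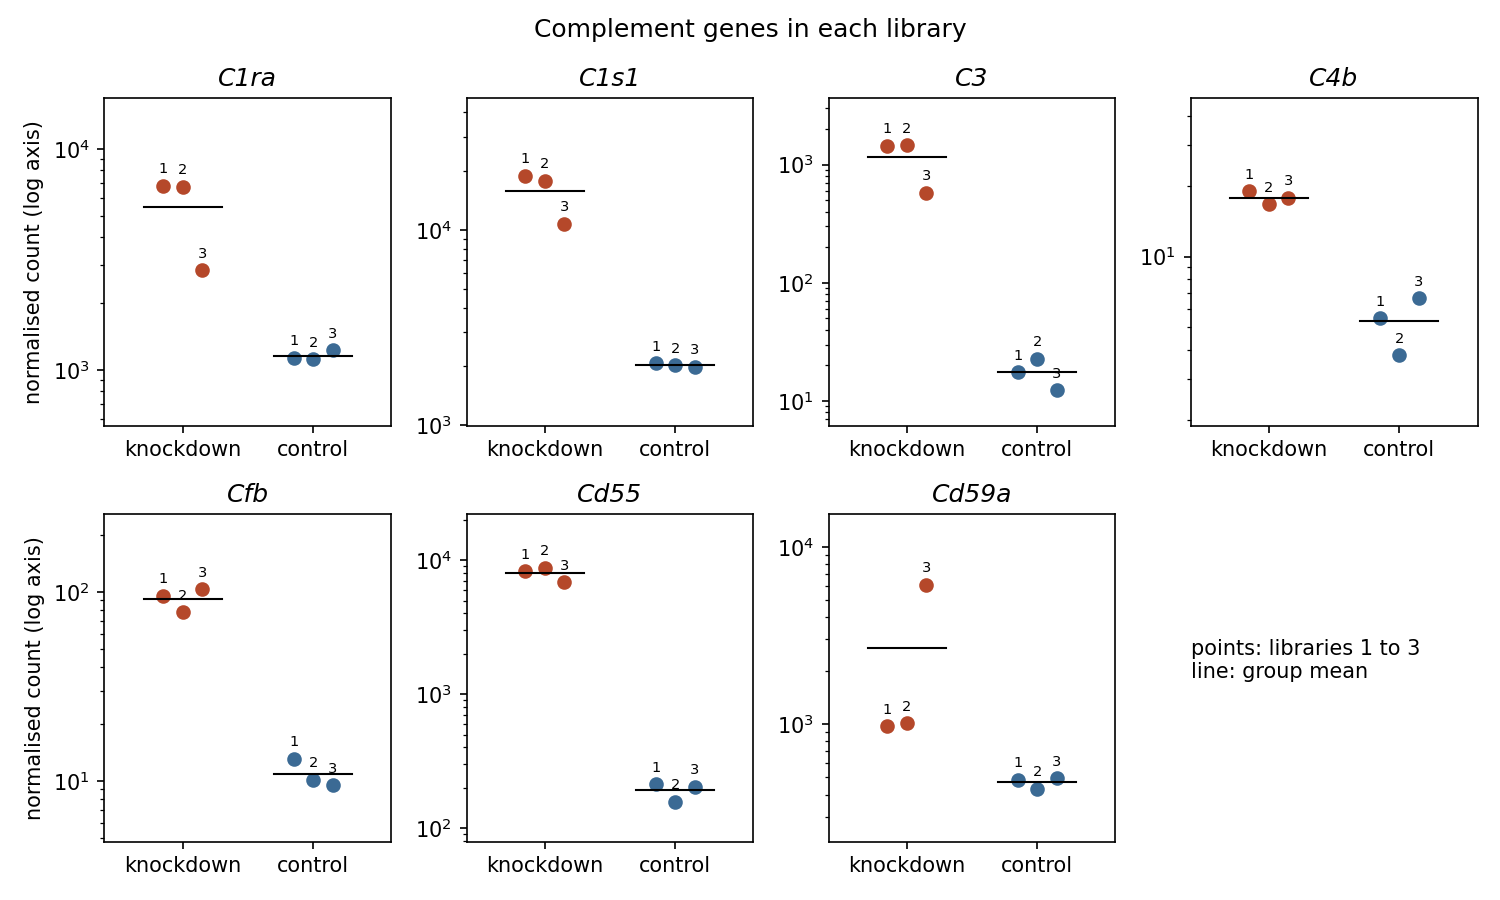
Normalised count of each of the 7 complement genes (log axis) in knockdown libraries (left, red) and control libraries (right, blue), with library numbers above the points and a line at each group mean. In every panel the 3 knockdown points lie above the 3 control points, and knockdown library 3 departs from libraries 1 and 2 most clearly for Cd59a, C1ra and C3.

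C1ra and C1s1 encode the proteases that start the classical pathway, and per length of exon they were the most abundant of the 7 in control cells. C1ra (ENSMUSG00000055172, GRCm38 chromosome 6, 124512405 to 124523443, plus strand) had normalised counts of 6811, 6754 and 2824 in knockdown libraries, against 1133, 1118 and 1228 in control libraries. The groups did not overlap, and knockdown library 3 was the lowest of its group, at 2.43 times the control mean. The means were 5463 ± 2286 in knockdown and 1159.5 ± 59.4 in control (SD, n = 3 each), a log2 change of 2.13 ± 0.36 (SE) with adjusted p = 0.0042 (limma). Without the third knockdown library the change was 2.55 ± 0.06.

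C1s1 (ENSMUSG00000038521, chromosome 6, 124530345 to 124542359, minus strand), which cleaves C4 and C2 once C1r has activated it, had 18909, 17779 and 10751 in knockdown libraries, against 2076, 2022 and 1989 in control libraries. Here too knockdown library 3 was the lowest of its group and still 5.30 times the control mean. It rose by 2.92 ± 0.23 on the log2 scale (SE, n = 3 in each group; adjusted p = 2.2e-04, limma), and by 3.18 ± 0.05 without library 3. An antisense gene, Gm16567, overlaps 18.4% of its exonic bases, and without a stated strand setting their reads cannot be told apart.

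C3 (ENSMUSG00000024164, chromosome 17, 57203970 to 57228136, minus strand), on which all pathways converge, had 1448, 1462 and 575 in knockdown libraries, against 17.4, 22.7 and 12.4 in control libraries. The control values rest on 47 reads in all, so C3 was near silent in control cells. Its means were 1161 ± 508 in knockdown and 17.5 ± 5.19 in control (SD, n = 3 each). The log2 change was 5.89 ± 0.44 (SE), adjusted p = 1.7e-04 (limma), with 0.763% of the genes tested changed upward as much or more. Without library 3 it was 6.34 ± 0.22.

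C4b (ENSMUSG00000073418, chromosome 17, 34728380 to 34743882, minus strand), the C4 gene of the classical and lectin pathways, was scarce in both groups. It had 19.1, 16.7 and 17.9 in knockdown libraries and 5.45, 3.79 and 6.65 in control libraries, from 59 and 15 reads. It rose by 1.61 ± 0.33 on the log2 scale (SE, adjusted p = 0.0098, limma), and by 1.61 ± 0.38 without knockdown library 3, which lay between the other two. Its close relative C4a had 93.7, 86.2 and 117 in knockdown and 101, 96.0 and 84.6 in control, where the groups overlapped (log2 change 0.07 ± 0.21, adjusted p = 0.81, limma). Of 75-base windows of the C4b transcript, 23.5% also occur in C4a, so reads could pass between them and C4b is uncertain.

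Cfb (ENSMUSG00000090231, chromosome 17, 34856374 to 34862518, minus strand), factor B of the alternative pathway, had 95.3, 77.8 and 103 in knockdown libraries, against 13.1, 10.1 and 9.50 in control libraries. Knockdown library 3 was the highest of its group here. It rose by 2.97 ± 0.26 on the log2 scale (SE, adjusted p = 3.1e-04, limma), and by 2.88 ± 0.27 without library 3. A protein-coding gene model on the same strand, Gm20547, covers 79.5% of the exonic bases of Cfb, and no source states how shared reads were counted, so the values of Cfb are uncertain.

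Cd55 (ENSMUSG00000026399, chromosome 1, 130439027 to 130462744, minus strand), the decay-accelerating inhibitor anchored in the membrane, had 8288, 8807 and 6830.4 in knockdown libraries, against 214, 158 and 203 in control libraries. All 3 knockdown values were close together, with means of 7975 ± 1025 in knockdown and 192 ± 29.6 in control (SD, n = 3 each). The log2 change was 5.38 ± 0.17 (SE), adjusted p = 1.0e-05 (limma), and 5.48 ± 0.12 without library 3. An antisense gene, Gm16083, overlaps 2.10% of its exonic bases. Of the genes tested, 1.03% changed upward as much or more. Apart from C3, the share was larger for the other genes, from 4.21% for Cfb to 11.4% for C4b.

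Cd59a (ENSMUSG00000032679, chromosome 2, 104095801 to 104115354, plus strand), the inhibitor of the membrane pore, is the gene that did not pass. It had 970.0, 1012 and 6110.4 in knockdown libraries, against 484, 432 and 493 in control libraries. The groups did not overlap, but knockdown library 3 was at 13.0 times the control mean, while libraries 1 and 2 together were at 2.11 times. On the log2 scale it was higher by 1.95 ± 0.72 (SE), short of the threshold (adjusted p = 0.071, limma). Without library 3 it was smaller and passed, at 1.08 ± 0.08 with adjusted p = 7.1e-07. With all 6 libraries edgeR on recovered reads gave adjusted p = 0.043, and the authors' deposited table lists an adjusted p of 0.0018 at a log2 change of 2.52.

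Set per length of exon, the order of the genes changed between the groups. In RPKM (reads scaled to exon length and library total), knockdown cells had 121 ± 38.7 of C1s1, 44.3 ± 19.9 of C1ra, 39.3 ± 6.87 of Cd55 and 34.1 ± 35.9 of Cd59a, then 5.46 ± 2.56 of C3, 0.773 ± 0.0827 of Cfb and 0.0748 ± 0.00613 of C4b (SD, n = 3). In control cells the order was C1s1 at 13.6 ± 0.334, C1ra at 8.19 ± 0.370, Cd59a at 5.46 ± 0.348, Cd55 at 0.830 ± 0.124, Cfb at 0.0812 ± 0.0143, C3 at 0.0717 ± 0.0217 and C4b at 0.0195 ± 0.00518. Library values of C1ra, Cd55 and Cd59a overlapped in knockdown cells, as did those of Cfb and C3 in control cells, so these neighbours in the orders do not differ beyond their spread. Cd55 lay below Cd59a in each control library and above it in knockdown libraries 1 and 2, but below it in library 3.

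**Figure D2:**
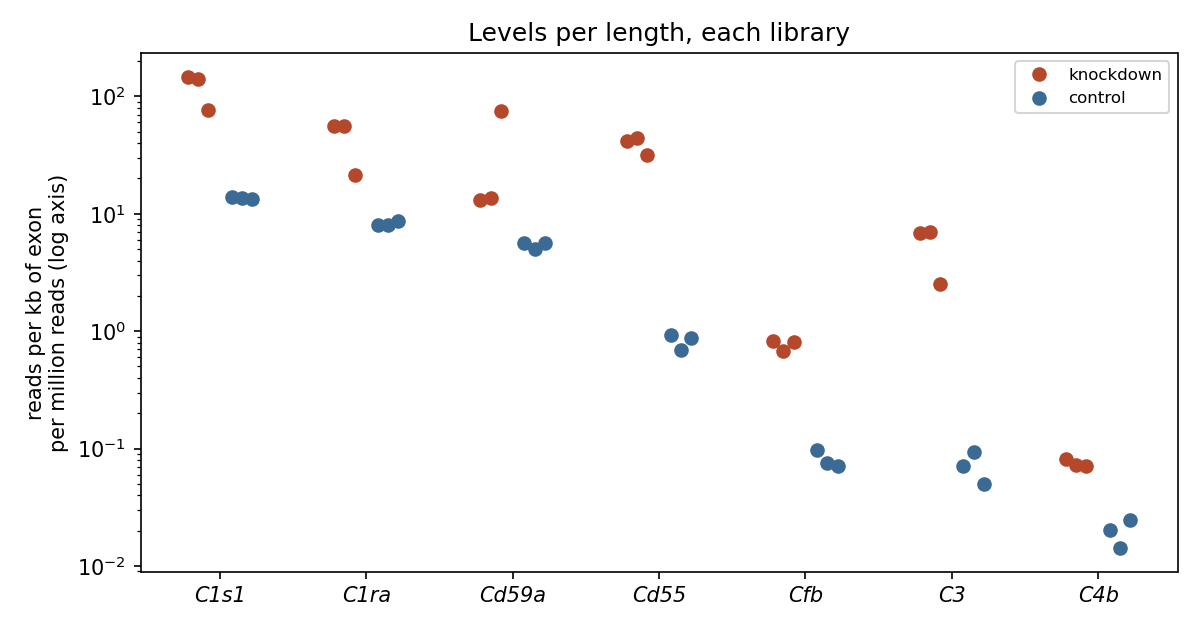
RPKM (log axis) in each knockdown library (red, left) and control library (blue, right) for the 7 genes. C1s1 is the highest in both groups by its mean, while Cd55 and C3 show the widest gaps between the groups.

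The third knockdown library did not move these genes in 1 direction. Relative to the control mean, it lay below knockdown libraries 1 and 2 for C1ra (2.43 times in library 3 and 5.85 times in libraries 1 and 2), C1s1 (5.30 and 9.04), C3 (32.8 and 83.1) and Cd55 (35.7 and 44.6). It lay above them for Cd59a (13.0 and 2.11) and Cfb (9.44 and 7.95), and C4b was level (3.38 and 3.38). Malat1, a nuclear RNA, took 2.83% of reads in that library, 0.511 and 0.515% in knockdown libraries 1 and 2, and 0.302 to 0.333% in control libraries. The part of RNA quality in these differences was not tested.

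**Figure D3:**
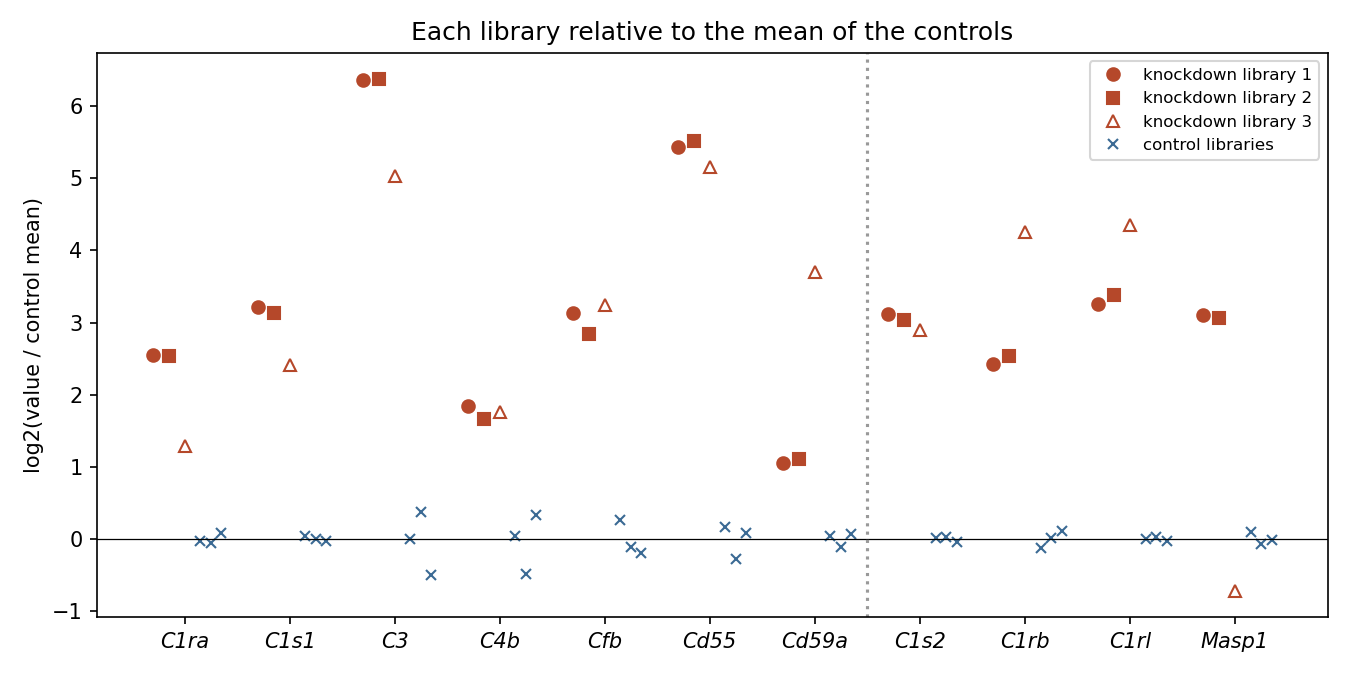
Log2 of each library's normalised count over the mean of the controls, for the 7 genes (left of the dotted line) and C1s2, C1rb, C1rl and Masp1 (right). Knockdown libraries 1 and 2 (filled) lie close together in each gene, while library 3 (open triangle) is lower for C1ra, C3 and Masp1 and higher for Cd59a, C1rb and C1rl.

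C1ra and C1s1 are part of a row of related genes on chromosome 6, and all 5 of its measured genes rose. C1rl, which encodes a C1r-like protease and starts 19.3 kb before C1ra, had 1379, 1497 and 2948 in knockdown libraries and 144, 147 and 141 in control libraries (log2 change 3.66 ± 0.30, adjusted p = 2.6e-04, limma, n = 3 per group). C1s2, a paralogue of C1s1, had 1412, 1343 and 1213 in knockdown libraries and 165, 167 and 159 in control libraries (3.01 ± 0.13, adjusted p = 2.4e-05). C1rb, a paralogue of C1ra, had 261, 284 and 931 in knockdown libraries and 44.7, 49.3 and 52.3 in control libraries (3.05 ± 0.51, adjusted p = 0.0040), or 2.46 ± 0.15 without library 3. The paralogues are uncertain, since 40.1% of 75-base windows of the C1ra transcript occur in C1rb and 14.7% of those of C1s1 occur in C1s2. In library 3 C1ra was the lowest of its group and C1rb the highest.

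On the C1rl side of the row the next tested genes went the other way: Clstn3, a calsyntenin of the neuronal membrane, fell by 2.14 ± 0.28 and Pex5, the import receptor of peroxisomes, fell by 0.73 ± 0.22 (adjusted p = 0.0016 and 0.039, limma). On chromosome 17, Cfb and C4b lie among genes of the major histocompatibility region, and 13 tested genes within 100 kb of Cfb gave 7 higher, 1 lower and 5 not past the threshold. C2, which neighbours Cfb and encodes the protease that pairs with C4, did not pass (16.6, 21.7 and 13.4 in knockdown, 13.1, 22.7 and 20.9 in control, log2 change -0.11 ± 0.35, adjusted p = 0.81, limma). Tnxb, the tenascin X gene beside C4b, rose by 9.88 ± 0.56. Beside Cd55, the only tested neighbours, Gm15674 and Gm15675, rose by 4.55 ± 0.33 and 5.27 ± 0.26, and beside C3, 1 of 4 rose. Within 100 kb of C4b 5 of 9 rose and 4 did not pass. The windows around Cfb and C4b overlap, so Tnxa, Stk19 and Dxo, all higher, count for both. Over all genes tested, 21.7% were called higher and 23.5% lower. Beside Cd59a 1 of 3, D430041D05Rik, fell by 4.36 ± 0.96 (adjusted p = 0.012, limma), and the others did not pass.

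**Figure D4:**
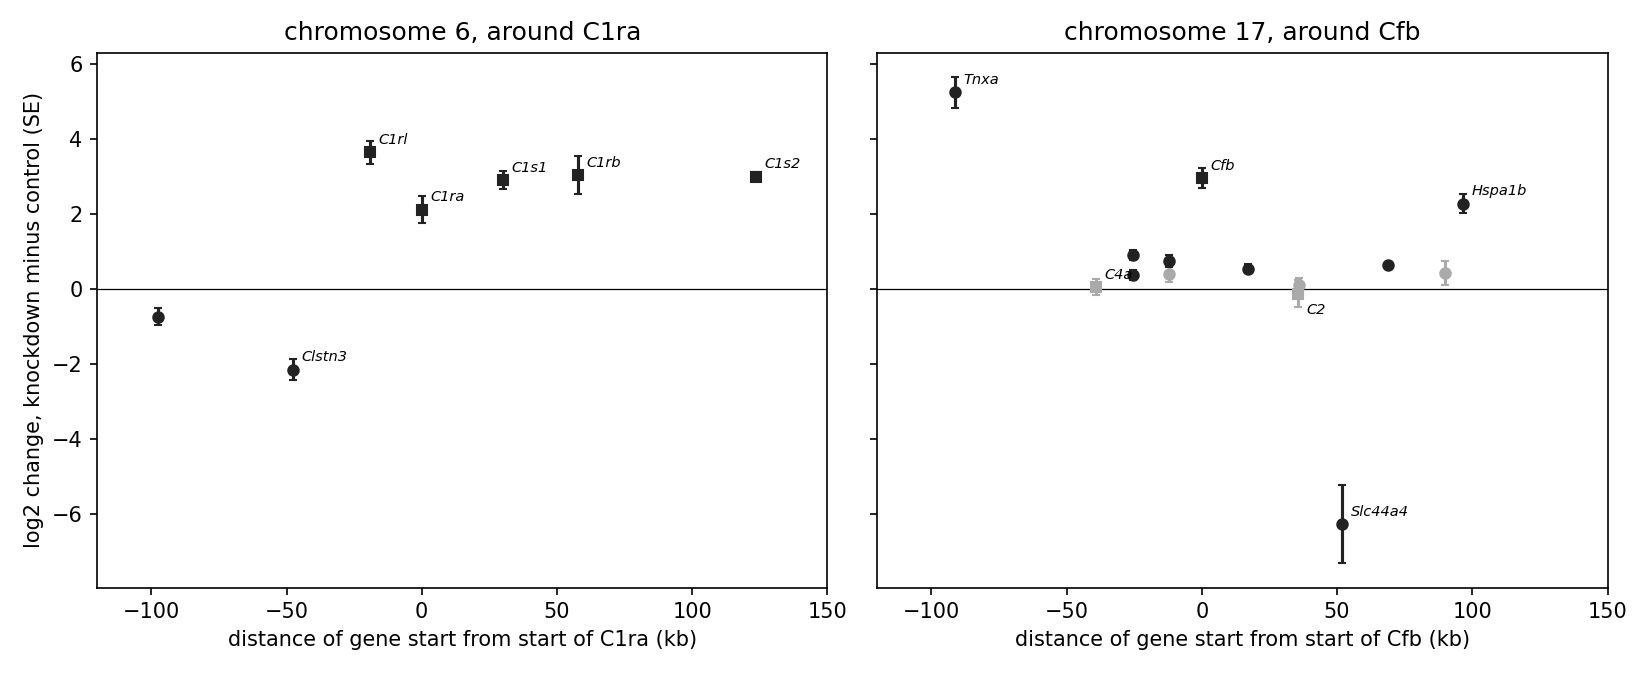
Log2 change (knockdown minus control, bars SE) of tested genes around C1ra and around Cfb, by distance of their start from that gene's start in kb. Squares are complement genes, circles others, black past the threshold and grey not, with names for complement genes and changes over 1. The 5 genes of the C1r and C1s row lie between 2.13 and 3.66, while C4a and C2 beside Cfb lie near 0.

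Promoter sequences (RefSeq, GRCm38.p6, 250 bases before to 50 after the start, on the strand of the gene) were found for 5 of the 7 genes, and not for C4b and Cfb. Those of C3 and Cd55, with the largest changes, and of C1ra are shown. Capitals mark matches on either strand to the interferon-stimulated response element core, a gamma-activated site (TTCNNNGAA), a reduced NF-kB site, a reduced C/EBP site (TTNNGNAA), TATAAA and CCAAT, where N is any base. Both strands were searched, and overlapping matches counted. The E-box, CANNTG, was searched too but is left in lower case.
C3, chr17:57228087-57228386, minus strand: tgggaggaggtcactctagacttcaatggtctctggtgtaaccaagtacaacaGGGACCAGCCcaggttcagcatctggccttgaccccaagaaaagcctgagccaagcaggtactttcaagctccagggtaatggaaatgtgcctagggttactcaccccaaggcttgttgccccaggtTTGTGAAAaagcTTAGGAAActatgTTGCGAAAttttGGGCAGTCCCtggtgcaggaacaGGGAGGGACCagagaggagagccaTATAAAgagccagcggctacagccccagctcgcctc
Cd55, chr1:130462695-130462994, minus strand: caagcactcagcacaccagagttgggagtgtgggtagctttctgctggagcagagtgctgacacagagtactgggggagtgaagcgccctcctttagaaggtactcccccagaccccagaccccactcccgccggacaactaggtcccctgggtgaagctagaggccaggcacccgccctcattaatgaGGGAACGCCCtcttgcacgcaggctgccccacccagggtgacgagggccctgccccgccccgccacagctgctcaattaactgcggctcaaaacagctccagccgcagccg
C1ra, chr6:124512371-124512670, plus strand: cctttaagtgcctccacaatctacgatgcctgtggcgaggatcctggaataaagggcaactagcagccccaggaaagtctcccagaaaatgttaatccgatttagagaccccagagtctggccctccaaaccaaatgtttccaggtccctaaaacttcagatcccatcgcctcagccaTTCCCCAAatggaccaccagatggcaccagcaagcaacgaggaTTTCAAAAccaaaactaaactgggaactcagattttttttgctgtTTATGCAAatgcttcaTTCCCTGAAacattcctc
The C3 window held 3 matches to the reduced C/EBP site, with first bases at -70, -58 and -45 (the start is 0). It also held 3 to the reduced NF-kB site, at -197, -33 and -10, and 1 TATAAA, 14 bases past the start. Such matches are common: over all 32851 windows 40.7% held the reduced C/EBP site, 20.7% the reduced NF-kB site and 13.6% TATAAA. The Cd55 window held 1 match to the reduced NF-kB site and an E-box, CAGCTG, 4 bases past the start, and an E-box was in 72.3% of windows. The C1ra window held 3 matches to the reduced C/EBP site, at -72, -29 and 16. It also held 1 to the gamma-activated site, TTCCCTGAA, 32 bases past the start, a motif in 8.30% of windows. The RefSeq start used for this window lies downstream of the start of C1ra given above, 124512405. Most of the C1ra window thus lies inside the gene span. Of the windows not shown, that of Cd59a held the sole match to the interferon-stimulated response element core among these genes, GAAAGGGAAA at -187, a motif in 3.44% of windows. CCAAT, in 37.4% of windows, was in none of the 5. These letters are a description and do not show binding.

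Genes of recognition molecules, inhibitors and C1r and C1s relatives were also among those higher in the knockdown. Of 56 further complement genes, 26 had a row and 25 were tested, of which 11 were higher, 2 lower and 12 not past the threshold, with a median log2 change of 1.11, against 21.7% higher, 23.5% lower and a median of -0.001 over all genes tested. Without the third knockdown library 15 were higher and 3 lower, where 38.6% and 39.9% of all genes were called. Colec10 and C4bp passed the filter through knockdown values alone and Itgam through control values alone.

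Among the inhibitors, Clu, clusterin, which binds terminal complexes, had 780, 877 and 846 in knockdown libraries, against 139, 136 and 130 in control libraries. It rose by 2.61 ± 0.13 on the log2 scale (SE, adjusted p = 4.3e-05, limma), and its groups lay far apart. Cd46, a membrane inhibitor, rose by 1.88 ± 0.25 (adjusted p = 0.0017, limma).

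C4bp, the C4b-binding protein, had 0 reads in control and 17.4, 34.3 and 38.0 in knockdown libraries, at least 9.05-fold higher, or 7.83-fold without library 3, with 3 reads per control library taken as the floor. Cr1l, the rodent cofactor Crry, was abundant and did not pass: 2408, 2539 and 2316 in knockdown libraries, 2126, 2391 and 2167 in control libraries, with overlap (log2 change 0.12 ± 0.11, adjusted p = 0.41, limma). Without library 3 it passed, at a log2 change of 0.15 ± 0.06 (adjusted p = 0.046). Vtn, vitronectin, which binds terminal complexes, was higher by 1.52 ± 0.54 and did not pass (adjusted p = 0.063, limma), but passed without library 3 (1.24 ± 0.50, adjusted p = 0.042).

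Of 12 recognition genes listed, 3 had a row, and all 3 rose, where 21.7% of all genes tested were called higher. Of these, Colec10 passed the filter through its knockdown values alone, so it could hardly have been tested without differing. Ptx3, a pentraxin that binds C1q, rose by 2.37 ± 0.25 (adjusted p = 6.9e-04), Colec10, a collectin, by 3.47 ± 0.50 (adjusted p = 0.0023), and the scavenger receptor Colec12 by 1.76 ± 0.29 (adjusted p = 0.0038, limma). Among proteases and components 3 of 8 tested genes rose, against the same 21.7%, and these were the C1r and C1s relatives given above. Masp1, a lectin pathway protease, had 8699, 8476 and 610 in knockdown libraries, against 1080, 960 and 996 in control libraries. Library 3 thus lay below the controls and libraries 1 and 2 far above them, and the log2 change of 1.81 ± 1.04 (adjusted p = 0.21, limma) became 3.09 ± 0.06 without library 3 (adjusted p = 3.0e-11).

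Of the terminal pathway, C8g alone had a row, at 85.4, 94.5 and 72.7 in knockdown and 51.2, 90.9 and 60.8 in control (log2 change 0.34 ± 0.28, adjusted p = 0.36, limma). C1q chains were not analysed here. Receptors and binding proteins split. Calr, an endoplasmic reticulum chaperone that binds C1q, was higher by 1.11 ± 0.31 (adjusted p = 0.030, limma). Its values were 64273, 64916 and 129018 in knockdown and 37909, 37066 and 38285 in control. Calr passed in only 3 of the fits with 1 library left out, where its adjusted p reached 0.099. C1qbp, a mitochondrial protein that also binds C1q, fell by 1.01 ± 0.13 (adjusted p = 0.0015). Itgam, a chain of complement receptor 3, fell by 4.18 ± 0.82 (adjusted p = 0.0077), from low values of 0, 0 and 5.59 in knockdown and 27.2, 42.9 and 30.4 in control, with a log2 change of -5.08 ± 0.40 without library 3.

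**Figure D5:**
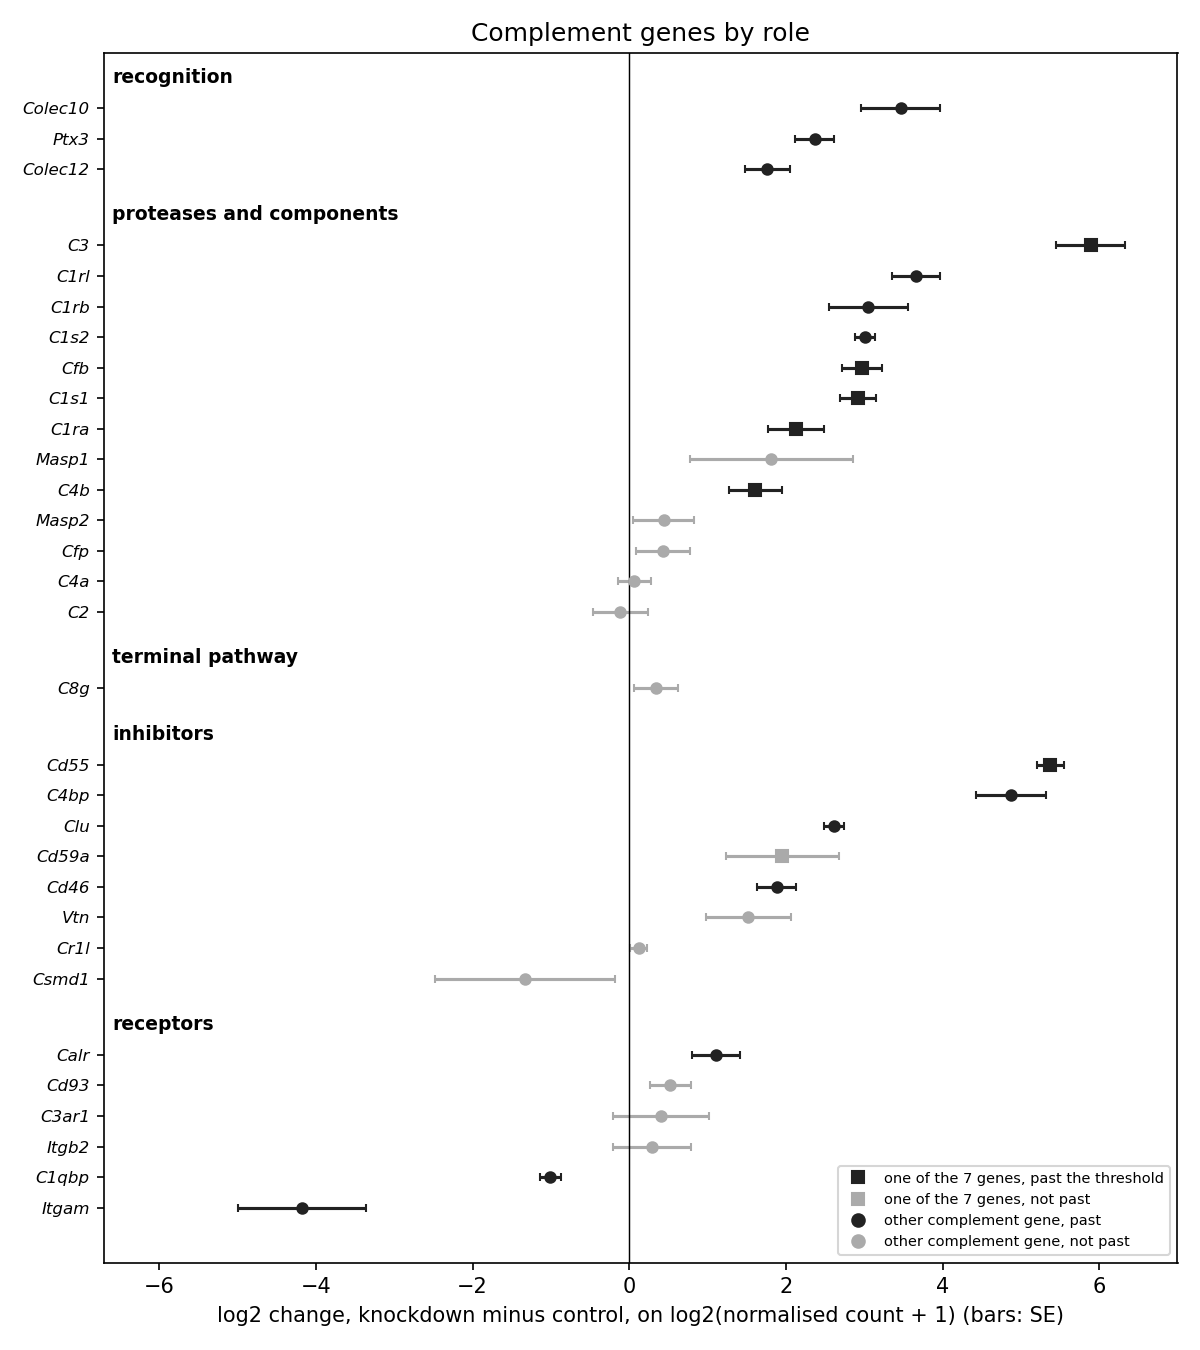
Log2 change (knockdown minus control, bars SE, n = 3 per group) of the 7 genes (squares) and other complement genes (circles), by role, with genes past the threshold in black and others in grey. Most inhibitors and C1r and C1s relatives lie to the right, C3 farthest at 5.89, while Itgam lies farthest to the left at -4.18.

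Known inducers of complement genes were listed as well: interferon, interleukin-1, interleukin-6 and tumour necrosis factor signals act on C3, Cfb, C1r and C1s through IRF, NF-kB and C/EBP factors. Of 28 listed, 24 were tested, 14 were higher and 2 lower, with a median log2 change of 0.64, against 21.7% higher, 23.5% lower and -0.001 over all genes. Cebpd, an inflammatory C/EBP factor, had 1292, 1287 and 1774 in knockdown libraries, against 358, 374 and 323 in control libraries (log2 change 2.03 ± 0.17, adjusted p = 2.7e-04, limma). Il6ra, the interleukin-6 receptor, had 4389, 4299 and 8742 in knockdown libraries, against 438, 443 and 486 in control libraries (3.59 ± 0.29, adjusted p = 2.4e-04).

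The lower inducers were Lif and Relb. Lif, a cytokine of the interleukin-6 family, had 103, 89.5 and 53.7 in knockdown libraries, against 535, 524 and 505 in control libraries (log2 change -2.71 ± 0.27, adjusted p = 5.0e-04, limma). Relb, an NF-kB subunit, fell by 0.38 ± 0.12 (adjusted p = 0.038, limma). With 1 library left out, Relb passed only without knockdown library 3 (adjusted p = 0.0010), and its adjusted p otherwise reached 0.15. Il6 itself was low and did not pass, at 23.2, 27.6 and 54.8 in knockdown and 19.6, 24.0 and 14.3 in control (log2 change 0.77 ± 0.41, adjusted p = 0.18, limma). Without library 3, 20 inducers were higher and 2 lower, where 38.6% of all genes were called higher and 39.9% lower.

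Markers of other cell types that make complement moved unevenly. Of fibroblast and fibro-adipogenic progenitor markers 7 of 8 had a row. Ly6a, Cd34 and Dcn rose, by 7.90 ± 0.20, 6.36 ± 0.18 and 4.22 ± 0.31 (adjusted p = 5.4e-06, 6.9e-06 and 1.7e-04, limma), and the other 4, Pdgfra, Col3a1, Lum and Dpt, did not pass. Without library 3 Pdgfra was higher (0.89 ± 0.08, adjusted p = 2.9e-06) and Col3a1 and Lum were lower (-0.38 ± 0.08 and -0.32 ± 0.09, adjusted p = 0.0018 and 0.0069). Their summed normalised count was 334919.5 to 474537 in knockdown libraries and 465454 to 492674 in control libraries, most of it Col3a1. Of macrophage and leukocyte markers 4 of 8 had a row: Cd14 rose by 2.96 ± 0.14 (adjusted p = 3.8e-05), and Cd68, Csf1r and Fcer1g did not pass. Without library 3 Csf1r and Fcer1g were lower (-2.06 ± 0.31 and -1.84 ± 0.41, adjusted p = 1.3e-04 and 0.0022). Their sum was 1018 to 1347 in knockdown libraries, most of it Cd14, and 226 to 268 in control libraries. Of endothelial markers Pecam1, Tek and Vwf had a row, with a sum of 34.0 to 160 in knockdown and 191 to 241 in control, where most of it was Vwf. Tek rose by 2.27 ± 0.42 (adjusted p = 0.0059), having passed the filter through knockdown values alone, and Vwf fell by 3.14 ± 0.67 (adjusted p = 0.011, limma), with a log2 change of -3.91 ± 0.21 without library 3. Pecam1 was too low to test. Of hepatocyte markers Apob alone had a row, at 4.15 to 21.2 in knockdown against 25.3 to 41.4 in control. It was just past the threshold as lower (-1.80 ± 0.59, adjusted p = 0.048, limma). With edgeR it did not pass (adjusted p = 0.076). With 1 library left out, Apob passed with limma only without knockdown library 3 (adjusted p = 1.8e-04), and its adjusted p otherwise reached 0.15. The part of these cell types in the complement changes was not tested.

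The genes with the pattern most like each of the 7 over the 6 libraries were sought among those averaging 100 or more, by the Euclidean distance between centred log2 values. Card10, a scaffold of NF-kB signalling, was nearest to C3 (distance 0.507), Sybu, syntabulin, a linker of cargo to kinesin, to Cd55 (0.389), and Gja1, the gap junction protein connexin 43, to C1s1 (0.129). Glis3, a zinc finger factor, was nearest to C1ra (0.213), Ecm2, a matrix protein, to Cfb (0.342), and Dpp7, a dipeptidyl peptidase, to C4b (0.318). Mndal, an interferon-inducible gene, was nearest to Cd59a (0.217), with 102, 101 and 679 in knockdown libraries and 44.7, 46.7 and 54.2 in control libraries. The high value in knockdown library 3 follows from choosing Mndal by its likeness to Cd59a. Its own log2 change, 1.96 ± 0.76 (SE), did not pass (adjusted p = 0.081, limma). With 2 groups of 3 libraries, likeness mostly means a group difference of the same size.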

How the data were processed

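RNA of 6 C2C12 libraries was compared, 3 knockdown against 3 control, grouped by title. The submitters' processing notes name GRCm38, DESeq2, Subread 1.5.2 (featureCounts) and Trimmomatic 0.36. The aligner, annotation and strand setting are not stated there. Per the file headers and values, the authors deposited a normalised signal per gene and library (gene counts divided by a size factor), and the log2 fold change, p-value and adjusted p-value of their own comparison.

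Within a tolerance of 0.01 reads, 100% of values were whole multiples of 1 read (0.829 to 1.26 normalised units), so reads were recovered. The 16245 genes that reached 10 in 3 or more libraries went into limma 3.58.1 in R 4.3.3 on log2(value + 1) with a mean-variance trend, two-sided, adjusted by Benjamini-Hochberg; this scale understates changes of low genes. edgeR 4.0.16 on recovered reads called 3765 genes higher and 3579 lower, and DESeq2 1.42.0 was another alternative. The procedure was tested on reads simulated with the spread of the controls, so the wider spread of the knockdown libraries was not covered. Of the symbols, 23 were blank and 24 rows shared one; these were named by identifier. Positions and exonic lengths came from GENCODE M21, where 16812 of 16854 identifiers were found. Chi-square per gene was 3.75 for knockdown libraries 1 and 2 and 6.51 to 15.1 between controls, where 1 is sampling noise, so no library was counted as a duplicate. The floor of 3 reads covers counting error only, while SD and SE values describe the spread between libraries.

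Members and lists were chosen with earlier results of these data known. Named genes were the 7 genes, Adamtsl2, up to 2 per direction of each complement role and 3 per direction of the inducers by smallest adjusted p (the most abundant where none passed), and the nearest gene to each of the 7. Some genes that this rule names are not reported here. Others, such as Masp1, Vtn, C1rb, C4bp, Cd46, Cr1l, C4a, C2, Colec12, Il6 and chromosomal neighbours, were chosen after their values were seen.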

Additional observations from a re-analysis of the deposited data

How the results depend on the processing

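The 7 genes kept their upward direction under every alternative run: no filter on low values, a minimum of 50, pseudocounts of 0.5 and 5, TMM scaling, edgeR, DESeq2, a replicate block and each library left out. With a minimum of 50, C4b was not tested and 5 of the genes were called. Cd59a, not called with limma, was called by edgeR (2.57, adjusted p = 0.043), by DESeq2 (2.55, adjusted p = 0.0016) and without the third knockdown library (1.08). With 1 library left out, 6 to 7 of the 7 genes, 10 to 15 other complement genes and 13 to 20 inducers were higher, and 2 to 3 and 1 to 2 were lower. Over all genes 2443 to 6269 were then higher and 2648 to 6485 lower, the highest of both without knockdown library 3. A minimum of 50 left 1 lower complement gene, since Itgam was not tested. edgeR moved the median of all genes up by 0.11 (log2). Same-numbered libraries deviated together with correlations of 0.017, 0.105 and 0.143, and no label pairs them. With a replicate block 3010 genes were higher and 3301 lower, 6 of the 7 genes were called, and 1 inducer was lower. The cause of these changes was not tested. C4b rests on 59 knockdown and 15 control reads, and C3 on 47 control reads, which limits their precision.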
